A study of Mus musculus with 6 samples.

Results

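Matrix metalloproteinases (MMPs), ADAMTS proteinases and their tissue inhibitors (TIMPs) were examined in RNA of luminal cells, which form the secretory lining of the mouse prostate's glands. Members were the gene symbols made of Mmp, Timp or Adamts, a number and at most 1 letter. This gave 46 of the 24346 symbols in the tables, namely 23 MMP, 19 ADAMTS and 4 TIMP genes. The comparison was between 3 wild-type (WT) and 3 CSF1 libraries of C57BL/6 mice. CSF1 mice carried a mouse Csf1 transgene driven by the rat probasin promoter, whose activity is mainly in the prostate epithelium, and WT mice were their littermates. Luminal cells of 4-month-old mice were isolated by flow sorting, with sort markers not given in the sources used here. The library titles of each group hold the numbers 3, 5 and 8, called replicates here. What the numbers stand for is not stated, and the main fit does not pair libraries of the same number. It is also not stated whether the libraries are from different animals. The p-values therefore measure only the spread between these samples, which may be technical. The labels do not say how many transgenic lines were used.

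MMPs are zinc-dependent proteinases that cut collagens, proteoglycans and other matrix proteins, as well as growth factors and receptors at the cell surface. They are made as inactive precursors, and TIMP proteins bind the active enzymes and block them. ADAMTS proteinases are secreted relatives with thrombospondin repeats, several of which cut proteoglycans such as versican. In the prostate these enzymes take part in branching of the gland and in remodelling after androgen withdrawal.

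Values are FPKM, fragment counts scaled to transcript length and library size, summed over the transcripts of a symbol. Because of that scaling, levels of different genes can be compared. Values are listed for replicates 3, 5 and 8 in that order, and means are given ± SD over 3 libraries. Positions are the whole listed span of a gene on mm10. A log2 change is the difference in mean log2(FPKM + 1), CSF1 minus WT, and is smaller than the true log2 ratio for low genes. A gene rose or fell where limma's adjusted p, over all genes tested, was under 0.05. The test took in genes whose average across the 6 libraries reached 1 FPKM.

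The libraries differed in more than the members. The CSF1 libraries were deeper, with 4.17 to 5.01 units of read coverage per FPKM against 2.72 to 3.50 in WT. All 12 luminal markers checked, among them Krt8, Krt18 and Pbsn, were present in every library. Of the 12, Epcam and Tmprss2 rose, Hoxb13 and Spdef fell and 8 did not pass. With the replicate number as a block, Krt8 also passed, with higher values in CSF1 (adjusted p = 0.0452, against 0.309 without it). Markers of other cells were higher in CSF1, and their part in the results below was not tested. Summed FPKM of 14 macrophage markers was 24.6, 30.3 and 116 in WT and 733, 900.02 and 2916 in CSF1, and 14 of 14 rose. The 13 fibroblast and smooth muscle markers summed to 101 to 111 FPKM across WT and to 487 to 765 FPKM across CSF1, and all 11 of those tested rose. Dcn alone gave 88.2 to 102 FPKM of the WT sums. Of 10 basal markers, summing to 62.9 to 76.1 in WT and 552 to 867 in CSF1, 7 of 8 tested rose. Of 9 endothelial markers, summing to 1.16 to 3.65 in WT and 13.1 to 17.6 in CSF1, all 3 tested rose. Of 9 lymphocyte markers, summing to 0.5003 to 1.12 across WT and 7.34 to 25.05 across CSF1, both of the 2 tested rose. Of 10 neutrophil markers in the tables, only 2 were tested, of which Ltf rose and S100a8 did not pass (limma adjusted p = 0.0872). The others were under the test's filter. The granule genes Ngp and Mpo were listed at 0 in all 6 libraries, and S100a8 was listed at 0 in every WT library. WT means were below 1 FPKM for 8 of the 14 macrophage and 8 of the 11 tested fibroblast and smooth muscle markers. The same held for 2 of the 8 tested basal markers and for all tested endothelial, lymphocyte and neutrophil markers (3, 2 and 2). Such markers were tested only through their CSF1 values, so these counts lean to rises. Among all genes tested, 24.9% rose. In such bulk samples, more cells of a type and more RNA per cell cannot be told apart.

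Of the 46 genes, 14 were tested, and 12 rose, 1 fell and 1 did not pass. Among all 10951 genes tested, 24.9% rose and 7.47% fell, but these shares were 15.5% and 21.6% with quantile normalization and 18.6% and 16.1% with median-ratio scaling. The member that fell was Timp4, and the one that did not pass was Mmp12. Groups did not overlap for 13 of the 14, with CSF1 above WT for 12 of them, where 34.7% of all tested genes lay apart in that direction and 13.1% in the other. Mmp2, Mmp13, Mmp23 and Adamts8 had a WT mean below 1 FPKM and were tested only because they were high in CSF1, so this count leans to rises. With no filter, 42 members had a value above 0, of which 15 rose and 1 fell (38.1% of members, against 20.4% of all 17920 genes). Over these 42, the mean was higher in CSF1 for 37 and lower for 5, and it was higher for 63.97% of all genes. Their median log2 change was 0.26, against 0.09 for all genes.

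**Figure D1:**
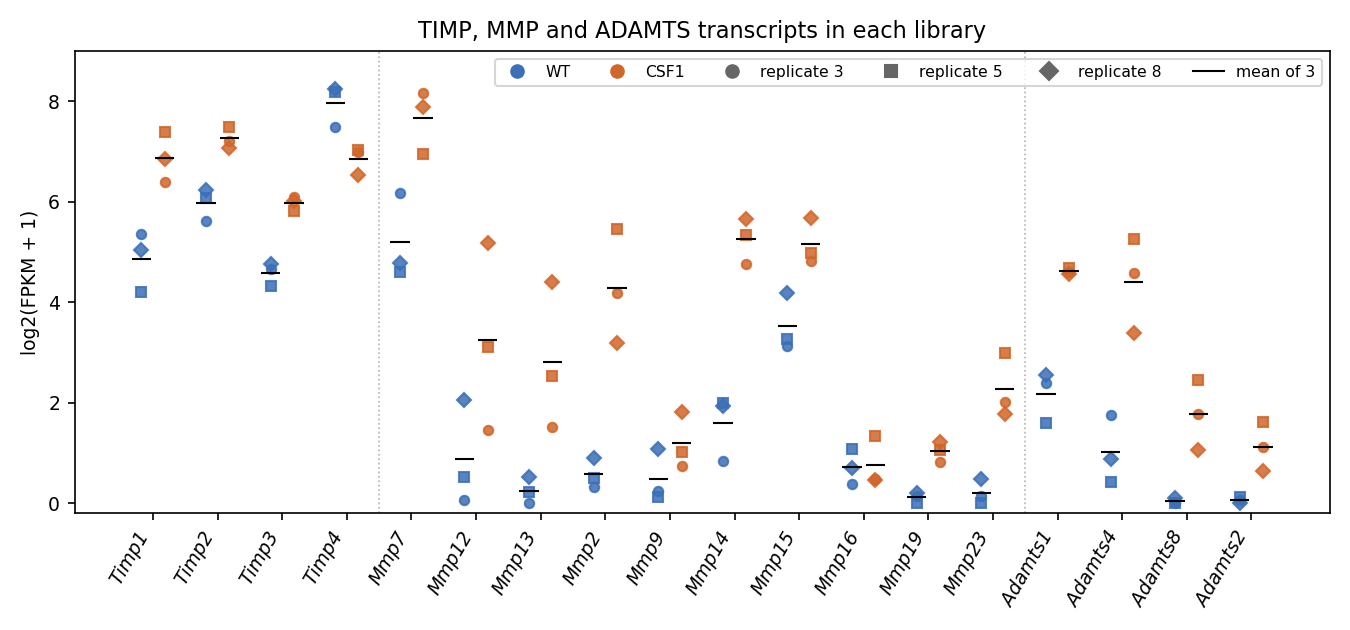
FPKM on a log2(FPKM + 1) scale (y axis) of the 18 genes at 1 FPKM or more in any library (x axis; inhibitors, MMPs and ADAMTS genes separated by dotted lines), for WT (blue) and CSF1 (orange) replicates 3, 5 and 8, with the mean of 3 as a bar. Timp4 is the only tested gene whose 3 CSF1 values lie below its 3 WT values, and Mmp12, Mmp9 and Mmp16 overlap between groups.

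Transcripts of the 4 inhibitors did not move together. Timp4 fell while Timp1, Timp2 and Timp3 rose, and none of the 4 genes had overlapping groups. For each, the exact two-sided permutation test gave p = 0.1, the smallest value that 3 libraries against 3 allow. The quoted adjusted p-values below are limma's.

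Timp4 encodes the inhibitor with the most restricted tissue distribution of the family and lies at chr6:115245616-115251849. It was at 178, 288 and 302 FPKM across WT and 126, 129 and 90.9 FPKM across CSF1. Its mean fell 2.22-fold, from 256 ± 68.2 to 115 ± 21.3 FPKM (log2 change -1.12 ± 0.23 SE, limma adjusted p = 0.00631). In WT it was the most abundant of the 46 genes in all 3 libraries, and it ranked 287th of 10951 tested genes by WT mean. The lowest WT library, replicate 3, still lay above the highest CSF1 library.

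Timp1 encodes an inhibitor that is induced by inflammatory cytokines in many cells (chrX:20870166-20874737). It was at 39.97, 17.3 and 31.8 FPKM across WT and 83.1, 165 and 114 FPKM across CSF1. The mean rose 4.07-fold (log2 change 2.01 ± 0.33 SE, limma adjusted p = 0.00216). All of it came from transcripts of 887 and 890 bases, and the longer one held 27.0% to 46.2% of Timp1 in WT and 40.03% to 44.8% in CSF1. The remaining listed transcript, of 810 bases, was listed at 0 throughout. Transcript use of Timp1 therefore overlapped between the groups.

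Timp2 encodes the inhibitor that, with MMP14, also takes part in activating the MMP2 precursor (chr11:118301061-118355411). It was at 48.002, 66.2 and 74.1 FPKM across WT and 148, 177 and 133 FPKM across CSF1, a 2.43-fold rise (log2 change 1.28 ± 0.19 SE, limma adjusted p = 0.00121). Timp3 encodes the inhibitor that binds to the matrix and also blocks ADAM17 and several ADAMTS enzymes (chr10:86300412-86349505). It was at 24.4, 19.04 and 25.9 FPKM across WT and 67.6, 55.1 and 63.1 FPKM across CSF1, a 2.68-fold rise (log2 change 1.39 ± 0.16 SE, limma adjusted p = 0.000338). Timp3 had the smallest spread between CSF1 libraries of the 4 inhibitors relative to its mean.

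The make-up of the inhibitor transcripts therefore differed. Timp4 held 61.3%, 73.7% and 69.6% of the summed TIMP FPKM in WT and 29.7%, 24.5% and 22.7% in CSF1. Timp2 held 16.5% to 17.1% in WT and became the largest share in CSF1, at 34.8%, 33.6% and 33.3%. Timp1 took 4.44% to 13.8% across WT and 19.6% to 31.4% across CSF1, without overlap. The sum over the 4 genes overlapped between groups, at 372 ± 73.9 FPKM in WT and 451 ± 67.1 FPKM in CSF1.

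**Figure D2:**
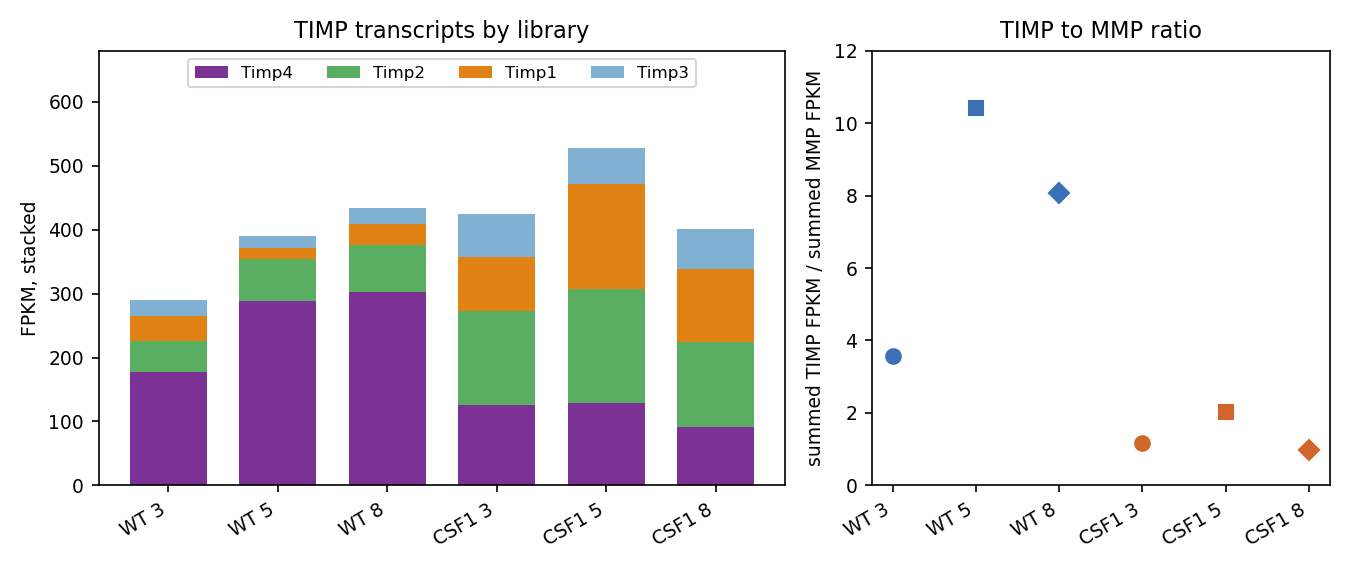
Left, FPKM of Timp4, Timp2, Timp1 and Timp3 stacked for each of the 6 libraries. Right, summed TIMP FPKM divided by summed MMP FPKM in the same libraries (WT blue, CSF1 orange). Timp4 takes over 60% of each WT bar and under 30% of each CSF1 bar, while the bar heights overlap, and the ratio is lower in every CSF1 library.

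The genes Timp1, Timp3 and Timp4 lie inside synapsin genes on the opposite strand, which matters because the library kits named in the labels do not mark strand. Exons of Timp3 and Timp4 overlap those of Syn3 and Syn2 in the GENCODE annotation. Syn1, around Timp1, was listed at 0 in all 6 libraries. Syn2 was at 0.0512 to 0.889 FPKM and Syn3 at 0.297 to 0.743 FPKM over the 6 libraries, far under the TIMP values.

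Among the proteinases, Mmp7 had the highest mean level of all 46 genes in CSF1. Mmp7 encodes matrilysin, a small MMP made by glandular epithelium that cuts matrix proteins and cell surface proteins (chr9:7692111-7699416). It was at 71.2, 23.3 and 26.6 FPKM across WT and 284, 122 and 233 FPKM across CSF1. The mean rose 5.28-fold, from 40.4 ± 26.7 to 213 ± 82.8 FPKM (log2 change 2.47 ± 0.44 SE, limma adjusted p = 0.00321). It made up 49.5% to 87.7% of summed MMP FPKM in WT and 46.98% to 78.04% in CSF1. Replicate 3 had the highest Mmp7 of both groups. Exons of Mmp7 overlap an antisense gene, AV064505, that was listed at 0 in all 6 libraries.

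Membrane-type MMPs are anchored at the cell surface, and 2 of the 6 genes were tested and rose. Mmp14 encodes MT1-MMP, which cuts collagen around the cell and activates the MMP2 precursor (chr14:54431604-54441258). It was at 0.789, 3.01 and 2.82 FPKM across WT and 26.01, 39.3 and 49.4 FPKM across CSF1, a 17.3-fold rise in the mean (log2 change 3.65 ± 0.34 SE, limma adjusted p = 0.000133). Mmp15, which encodes MT2-MMP (chr8:95352337-95374293), was the second most abundant MMP gene in WT. It was at 7.77, 8.58 and 17.1 FPKM across WT and 27.1, 30.6 and 49.7 FPKM across CSF1, a 3.21-fold rise (log2 change 1.63 ± 0.31 SE, limma adjusted p = 0.00492). Both were highest in CSF1 replicate 8. Mmp16, also of this class (chr4:17853482-18118734), was under the test's filter, at 0.302, 1.12 and 0.632 FPKM across WT and 0.407, 1.53 and 0.383 FPKM across CSF1, with overlapping groups.

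Gelatinases cut denatured collagen and basement membrane collagen. Mmp2 (chr8:92827328-92853420), typically a product of fibroblasts, was at 0.255, 0.424 and 0.871 FPKM across WT and 17.2, 42.8 and 8.08 FPKM across CSF1. Mmp2 rose (log2 change 3.69 ± 0.49 SE, limma adjusted p = 0.000775), and its log2 change was 3.10 without CSF1 replicate 5. Mmp9 (chr2:164948219-164955849), typical of neutrophils and macrophages, was under the filter. It was at 0.190, 0.0868 and 1.11 FPKM across WT and 0.680, 1.03 and 2.52 FPKM across CSF1, so the groups overlapped through WT replicate 8, while each CSF1 library lay above the WT library of the same number.

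Collagenases cleave the triple helix of fibrillar collagens. Of the 4 genes, Mmp13 (chr9:7272514-7283333) alone was tested and rose. WT values were 0, 0.162 and 0.433 FPKM, and CSF1 values were 1.85, 4.74 and 20.1 FPKM (log2 change 2.56 ± 0.62 SE, limma adjusted p = 0.0132). The change was 1.77 without CSF1 replicate 8 and 3.21 without CSF1 replicate 3, and the gene did not pass with no filter (limma adjusted p = 0.0546) or with a pseudocount of 5 (0.0566). Mmp12 encodes macrophage metalloelastase (chr9:7347374-7360461). It was at 0.0462, 0.429 and 3.13 FPKM across WT and 1.75, 7.62 and 34.99 FPKM across CSF1, so WT replicate 8 lay above CSF1 replicate 3, although each CSF1 library lay above the WT library of the same number. Mmp12 did not pass (log2 change 2.37 ± 0.86 SE, limma adjusted p = 0.0675). It passed with the replicate number as a block (adjusted p = 0.0028), without CSF1 replicate 3 (0.0120) and with array weights (0.0434), and its p over all settings ran up to 0.184.

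Among the other MMP genes, Mmp23 encodes a short, membrane-bound form (chr4:155650655-155653384) and rose. It was at 0.103, 0 and 0.392 FPKM across WT and 3.04, 6.97 and 2.44 FPKM across CSF1 (log2 change 2.06 ± 0.33 SE, limma adjusted p = 0.002). Mmp19 (chr10:128790910-128800824) was under the filter, at 0.108, 0 and 0.151 FPKM across WT and 0.760, 1.07 and 1.34 FPKM across CSF1, and passed with no filter (limma adjusted p = 0.00639). Its exons overlap Tmem198b on the opposite strand, which was at 0.485 to 0.691 FPKM in WT and 1.59 to 2.59 FPKM in CSF1. Of these, Mmp23 and Mmp19 had separate groups at low levels.

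Of 7 ADAMTS genes whose enzymes cut proteoglycans, 3 were tested and all 3 rose. Adamts1 encodes a versican-cutting enzyme (chr16:85793828-85803115). It was at 4.25, 2.04 and 4.85 FPKM across WT and 23.3, 24.5 and 22.7 FPKM across CSF1, a 6.32-fold rise (log2 change 2.43 ± 0.24 SE, limma adjusted p = 0.000177). Its 3 CSF1 values were the closest together of any tested member. Adamts4 encodes aggrecanase-1 (chr1:171250422-171259922) and was at 2.35, 0.347 and 0.840 FPKM across WT and 22.9, 37.2 and 9.53 FPKM across CSF1, a 19.7-fold rise (log2 change 3.39 ± 0.48 SE, limma adjusted p = 0.00105).

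Adamts8 (chr9:30942563-30962858) was at 0.00916, 0 and 0.0753 FPKM across WT and 2.43, 4.47 and 1.10 FPKM across CSF1 (log2 change 1.73 ± 0.34 SE, limma adjusted p = 0.00535). Without CSF1 replicate 5 its mean was under the filter and it was not tested. Adamts2, which encodes a procollagen N-proteinase (chr11:50602085-50807573), was under the filter and was the fourth ADAMTS gene to reach 1 FPKM in any library. It was at 0.0515, 0.0939 and 0 FPKM across WT and 1.16, 2.07 and 0.550 FPKM across CSF1, and passed with no filter (limma adjusted p = 0.0308). All 4 genes were lowest in CSF1 replicate 8.

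**Figure D3:**
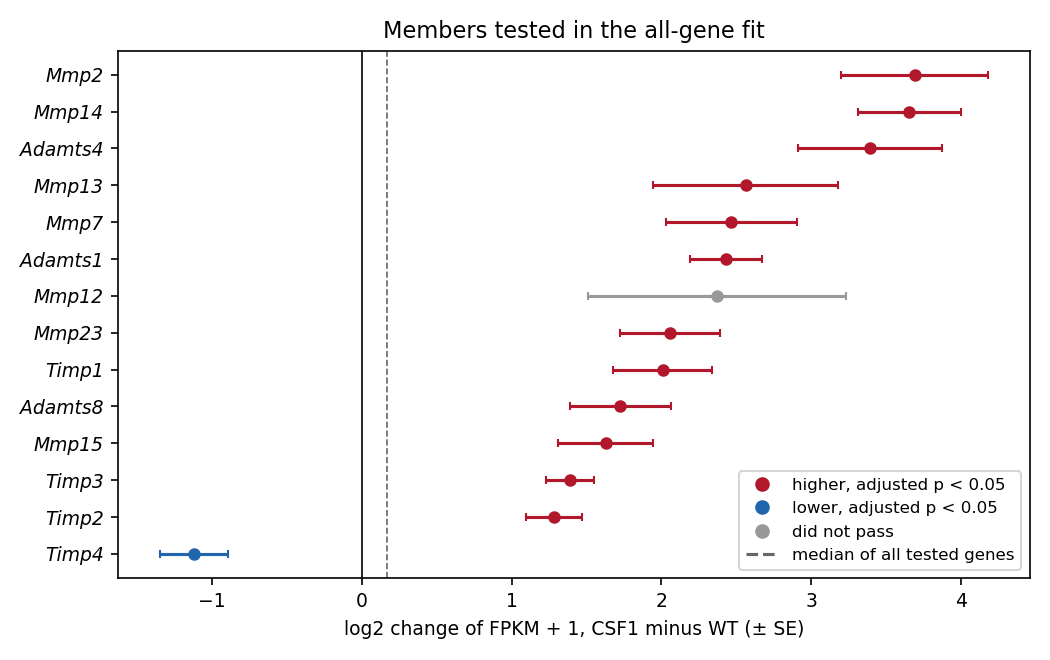
Log2 change of FPKM + 1, CSF1 minus WT (x axis), with its SE as a bar, for the 14 tested members (y axis), colored by the limma call, beside the median of all tested genes (0.17, dashed). The 12 red points lie between 1.28 and 3.69, Timp4 lies at -1.12, and the grey point with the widest bar is Mmp12.

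The scaling of the libraries moved the median of all genes from 0.17 to -0.16 with quantile normalization and to -0.03 with median-ratio scaling. The same 14 members were tested under both, and the count stayed at 12 higher and 1 lower. Timp4 was at -1.30 and -1.35, and the smallest rises, those of Timp2 and Timp3, were at 1.10 and 1.17 with quantile normalization and at 1.05 and 1.16 with median-ratio scaling.

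The other 28 members stayed below 1 FPKM in every library, and the highest value among them was Mmp8, a neutrophil collagenase, at 0.910 FPKM in CSF1 replicate 8. These levels correspond to thin coverage and were not tested with the filter. Mmp1a, Mmp1b, Adamts18 and Adamts19 were listed at 0 in all 6 libraries. The CSF1 values lay above the WT values for 7 of the 28 (Mmp3, Mmp11, Mmp17, Mmp27, Adamts5, Adamts9 and Adamts14) and below them for Adamts13, which encodes the enzyme that cuts von Willebrand factor. Among all 12068 genes below 1 FPKM in every library, 6.03% lay apart upward and 1.5% downward. Genes listed at 0 in all 6 libraries are counted among the 12068 and cannot lie apart. They make up a larger part of the 12068 than of the 28, where they are 4, so these shares are a low background for the members. With no filter, Mmp27 and Adamts5 passed among these 28. None of the 3 stromelysin genes (Mmp3, Mmp10 and Mmp11) reached 1 FPKM. Adamts1 and Adamts5 lie close together on chromosome 16, as do Adamts8 and Adamts15 on chromosome 9, and in each pair the second gene stayed below 0.5 FPKM.

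A cluster of 10 MMP genes lies within 427 kb of chromosome 9, and only Mmp13, Mmp12 and Mmp7, at or near its ends, reached 1 FPKM. Between them lie Mmp1b, Mmp3, Mmp1a, Mmp10, Mmp8, Mmp27 and Mmp20, all below 1 FPKM. Windows from 250 bases before to 50 after a start (RefSeq, GRCm38.p6) were held for 32 of the 46 genes and were searched on both strands for TGANTCA with N being C or G, the letters bound by AP-1 (FOS and JUN) factors. An exact match was found in 7 of these 32 genes, and all 7 lie in the cluster. The match was absent from the 22 genes outside it. Over all 27025 genes with such a window, 5.95% held a match, and among tested genes that rose it was 7.53%. The following stretches run from 100 bases before to 20 bases from the start on, with the AP-1 letters in capitals, and are shown because the match stands before both expressed and unexpressed genes.

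Mmp13 (chr9:7272414-7272533, plus strand): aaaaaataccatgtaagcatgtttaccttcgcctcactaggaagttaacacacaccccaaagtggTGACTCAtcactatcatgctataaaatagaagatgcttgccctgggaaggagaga
Mmp12 (chr9:7347274-7347393, plus strand): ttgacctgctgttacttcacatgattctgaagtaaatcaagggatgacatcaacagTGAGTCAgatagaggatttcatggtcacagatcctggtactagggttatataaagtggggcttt
Mmp1b (chr9:7388007-7388126, minus strand): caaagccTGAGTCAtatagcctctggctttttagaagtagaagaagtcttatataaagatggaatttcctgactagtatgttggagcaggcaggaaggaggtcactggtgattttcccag
Mmp3 (chr9:7445722-7445841, plus strand): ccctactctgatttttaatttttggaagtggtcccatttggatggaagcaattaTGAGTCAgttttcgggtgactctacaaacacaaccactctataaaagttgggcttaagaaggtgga
Mmp1a (chr9:7464041-7464160, plus strand): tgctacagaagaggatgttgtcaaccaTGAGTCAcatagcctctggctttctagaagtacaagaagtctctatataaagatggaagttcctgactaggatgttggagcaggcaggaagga
Mmp10 (chr9:7502242-7502361, plus strand): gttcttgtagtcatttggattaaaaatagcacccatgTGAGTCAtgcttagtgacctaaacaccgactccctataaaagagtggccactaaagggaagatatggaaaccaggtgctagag
Mmp7 (chr9:7691990-7692109, plus strand): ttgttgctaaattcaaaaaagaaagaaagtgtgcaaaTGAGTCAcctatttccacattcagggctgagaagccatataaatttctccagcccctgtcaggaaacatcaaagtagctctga

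The first base of the match lay 35 bases before the start in Mmp13, 44 in Mmp12, 46 in Mmp3, 63 in Mmp7 and Mmp10, 73 in Mmp1a and 93 in Mmp1b. Of these 7 genes, Mmp7 and Mmp13 rose, Mmp12 did not pass, and Mmp3, Mmp10, Mmp1a and Mmp1b were at or near 0. Mmp3 was at 0.0593, 0 and 0 FPKM across WT and 0.136, 0.629 and 0.664 FPKM across CSF1, and Mmp10 reached at most 0.132 FPKM. The RefSeq start used for Mmp7 lies 21 bases before the start of the transcript in the tables. The letters GGGNNTTCC or GGANNTTCC, part of the NF-kB consensus, were found in Mmp1a, Mmp1b and Adamts13 only, against 11.02% of all genes with a window. A match is a description of the letters and not a measured site.

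**Figure D4:**
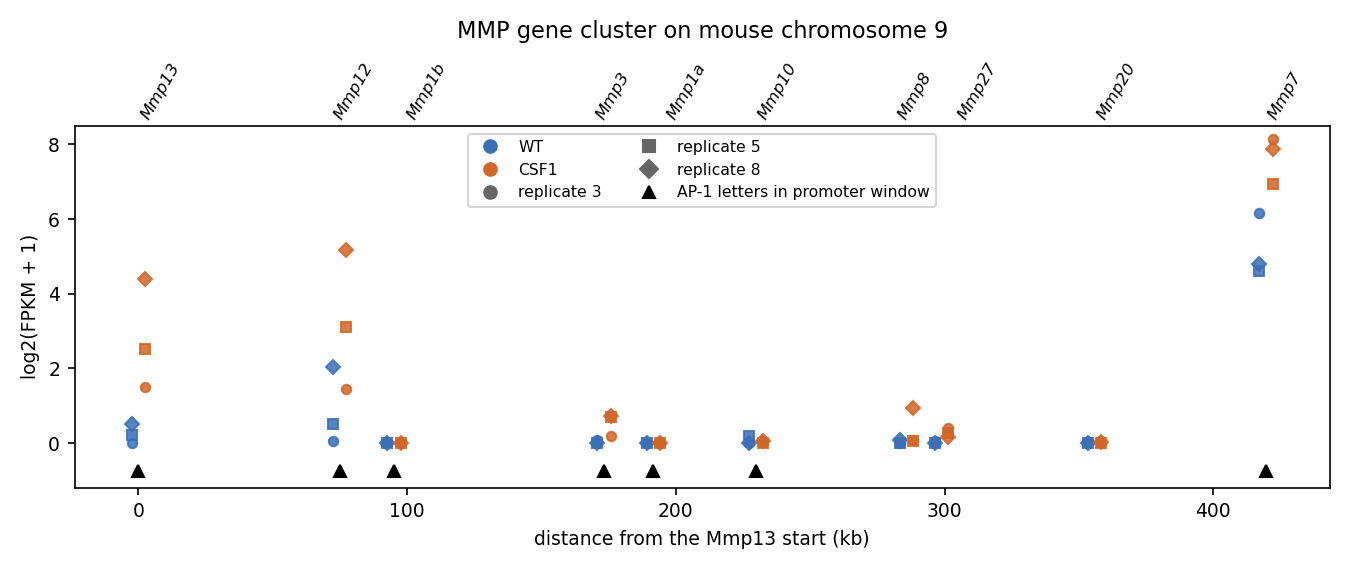
Log2(FPKM + 1) (y axis) of the 10 clustered MMP genes against distance from the Mmp13 start in kb (x axis), for WT (blue) and CSF1 (orange) replicates, with a triangle under each gene whose promoter window holds AP-1 letters. Signal lies at Mmp13, Mmp12 and Mmp7, whereas triangles also stand under 4 genes whose points stay below 1.

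Among the 3 CSF1 libraries the members differed in where they were highest. Of the 18 genes at 1 FPKM or more in any library, 6 were highest in replicate 8 (Mmp9, Mmp12, Mmp13, Mmp14, Mmp15 and Mmp19), 10 in replicate 5 and 2 in replicate 3 (Mmp7 and Timp3). The macrophage sum was also highest in replicate 8, in both groups, with Csf1r at 13.7, 18.1 and 40.3 FPKM and Adgre1 at 3.84, 8.05 and 15.3 FPKM in CSF1. Of the 14 macrophage markers, 13 were highest in CSF1 replicate 8, and Mrc1 was lowest there. The CSF1 sums of basal, lymphocyte, endothelial and neutrophil markers were highest in replicate 8 too, the last 2 by little. In replicates 3 and 8 the endothelial sums were 16.7 and 17.6 FPKM and the neutrophil sums 149 and 153 FPKM. Most of the neutrophil sum was Ltf, which was highest in replicate 3, at 147, 60.7 and 119 FPKM across CSF1. Of the 13 fibroblast and smooth muscle markers, 10 were highest in CSF1 replicate 5. Replicate 5 was highest and replicate 8 lowest for 9 of them, among these the collagen gene Col1a1 at 13.2, 25.5 and 6.75 FPKM and the receptor gene Pdgfra at 4.71, 12.2 and 1.81 FPKM. Lum, Myh11, Cnn1 and Postn had other orders. The order was not limited to these markers, as 5 of the 12 luminal markers, among them Hoxb13 and Spdef, and 3 of the 9 endothelial markers had it. Mmp2, Mmp23, Adamts2, Adamts4 and Adamts8 also had replicate 5 highest and replicate 8 lowest. Timp4, Timp2, Adamts1 and Mmp16 shared this order, with a narrower spread for the first 3. With 3 libraries this is a description, and the part of these other cell types in the values was not tested.

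**Figure D5:**
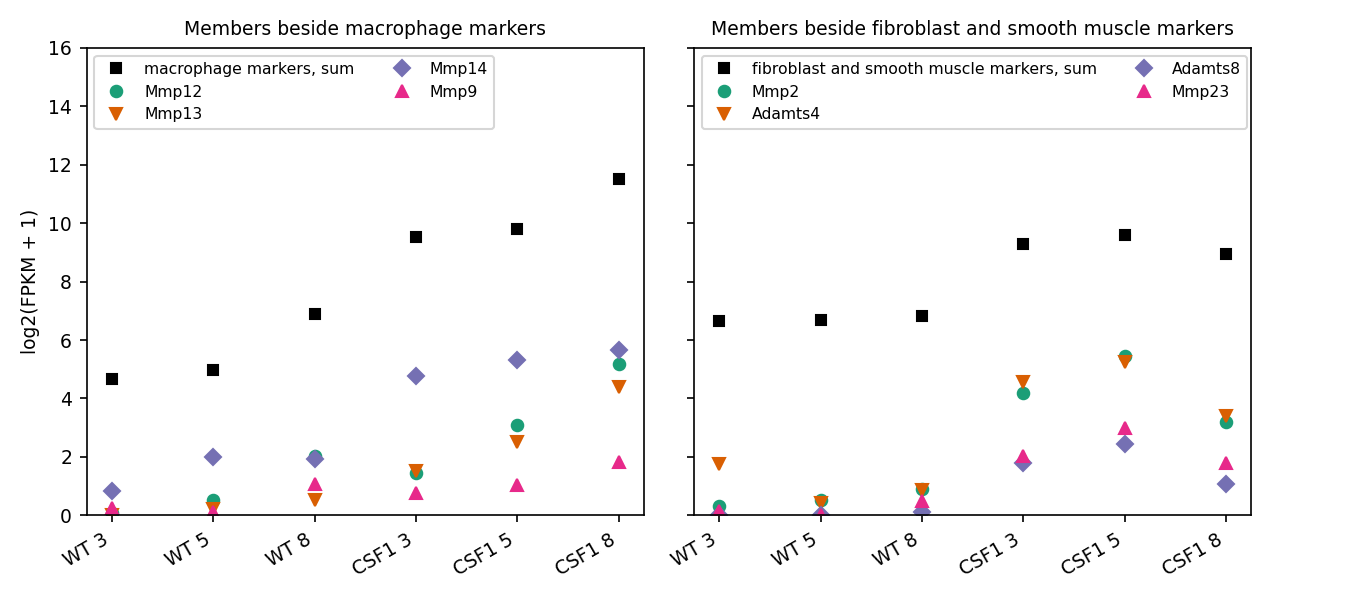
Log2(FPKM + 1) (y axis) in each of the 6 libraries (x axis) of the summed macrophage markers with Mmp12, Mmp13, Mmp14 and Mmp9 (left), and of the summed fibroblast and smooth muscle markers with Mmp2, Adamts4, Adamts8 and Mmp23 (right). The left-hand genes and sum peak in CSF1 replicate 8, and the right-hand sum, Mmp2, Adamts4, Adamts8 and Mmp23 peak in CSF1 replicate 5.

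Sums over the families moved by different amounts. Summed MMP FPKM was 81.2, 37.5 and 53.8 in WT and 364, 260 and 405 in CSF1, a 5.96-fold difference in means, and 7.58-fold without Mmp7. Summed ADAMTS FPKM was 7.25, 2.97 and 6.36 in WT and 51.9, 70.03 and 35.1 in CSF1, a 9.47-fold difference. The TIMP sum differed 1.21-fold. Summed TIMP over summed MMP FPKM was therefore 3.57, 10.4 and 8.07 in WT and 1.17, 2.03 and 0.990 in CSF1, with no overlap. Without Mmp7 the ratio was 28.9, 27.5 and 16.0 in WT and 5.31, 3.83 and 2.33 in CSF1, again with no overlap. These sums weigh transcripts and not proteins or activity, and no test was made on them.

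Genes that regulate or work beside these enzymes were followed in a list of 49, of which 48 were in the tables and 22 were tested. Of these, 17 rose, 0 fell and 5 did not pass, where 24.9% of all tested genes rose. The median log2 change of the 22 was 1.95, against 0.17 for all tested genes. Of the 22, 7 had a WT mean below 1 FPKM and were tested through CSF1. Reck, which encodes a membrane-anchored MMP inhibitor, was under the filter, at 0.0891, 0.156 and 0.183 FPKM across WT and 1.95, 2.45 and 0.407 FPKM across CSF1. Bsg, which encodes the MMP inducer basigin, was at 499 ± 91.7 FPKM in WT and 525 ± 5.75 FPKM in CSF1 and did not pass (limma adjusted p = 0.694). Furin, a convertase that activates membrane-type MMPs, was at 11.9 ± 3.76 and 19.02 ± 7.27 FPKM and did not pass (limma adjusted p = 0.141), but passed with the replicate number as a block (adjusted p = 0.0200). Ctsl, the cathepsin L gene, likewise passed with the block alone (limma adjusted p = 0.277, and 0.0387 with the block).

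Among ADAM genes, which encode sheddases and related proteinases, Adam10 rose from 11.03 ± 1.77 to 25.2 ± 1.38 FPKM and Adam17 from 2.04 ± 0.710 to 8.15 ± 1.41 FPKM. Adam8, Adam9 and Adam28 rose as well, Adam15 did not pass (limma adjusted p = 0.416), and Adam12, Adam19 and Adam33 were under the filter. In the plasminogen system, which can activate MMP precursors, Plaur, the urokinase receptor gene, rose from 53.97 ± 21.4 to 286 ± 73.9 FPKM. Plat, the tissue plasminogen activator gene, rose from 5.82 ± 1.18 to 98.2 ± 18.1 FPKM. Plau, the urokinase gene, was under the filter at 0.0855 ± 0.018 and 1.19 ± 0.571 FPKM. Pcolce, which encodes an enhancer of procollagen processing, had the largest log2 change of the list, 3.90, and rose from 1.37 ± 1.19 to 37.7 ± 25.1 FPKM.

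Of 23 genes of matrix substrates, 12 were tested and all 12 rose, where 24.9% of all tested genes rose. The median log2 change of the 12 was 2.97. Of the 12, 8 had a WT mean below 1 FPKM and were tested only because they were high in CSF1, so this count too leans to rises. The largest changes were those of Spp1, the osteopontin gene, from 10.4 ± 14.8 to 145 ± 141 FPKM (log2 change 4.24), and Sparc, from 4.21 ± 1.76 to 106 ± 76.05 FPKM (log2 change 4.13). Fibroblasts and macrophages also express many of these genes, and 4 of the 23 are fibroblast markers used here. Of 23 genes of factors and cytokines known to induce MMP transcription, 20 were tested. Of these, 18 rose, 0 fell and 2, Jun and Jund, did not pass, with a median of 1.45, where 24.9% of all tested genes rose. Among the 18 that rose, 2 had a WT mean below 1 FPKM and were tested only through CSF1. In CSF1, 16 of the 23 were highest in replicate 8, as was the macrophage sum, and 7 in replicate 3. The part of macrophages in these values was not tested. Il1b rose from 5.64 ± 4.70 to 293 ± 202 FPKM and Il1a from 1.94 ± 0.845 to 58.001 ± 39.98 FPKM. Among the AP-1 genes, Fos rose from 638 ± 117 to 1203 ± 106 FPKM and Fosl1 from 20.2 ± 3.90 to 72.7 ± 8.15 FPKM.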

How the data were processed

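RNA sequencing of 3 WT and 3 CSF1 libraries was analysed. Per the labels' protocols, the SMART-Seq v4 kit was used, and strand is not kept. TopHat, Cufflinks, bcl2fastq 1.8.3 and the build mm10 are named, per the submitters' processing notes. The authors deposited 1 table per library of 34535 RefSeq transcripts with FPKM and a coverage signal. The coverage per FPKM given above is the median of their ratio over the transcripts of a library. Fragment totals are not given, so counting error is unknown.

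FPKM was summed per symbol. The 9 symbols with a failed or skipped status in any library, none of them a member, were left out. The 10951 genes averaging 1 FPKM or more were tested as log2(FPKM + 1) with limma 3.58.1 in R 4.3.3 (intensity trend, two-sided, Benjamini-Hochberg adjustment). Members and lists were chosen with earlier results of these data known. Named genes were all members at 1 FPKM or more in any library or tested and, per list, the 2 largest changes in each direction plus 8 fixed regulators. Ctsl, Fos, Fosl1, Jun, Jund, marker genes and members under 1 FPKM were named after their values were seen. A few of the genes covered by this rule are not reported here. Promoters came from RefSeq GRCm38.p6 and exon overlaps from GENCODE M21. Listed starts are given 1-based.

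Same-numbered WT and CSF1 libraries deviated together (correlations of 0.257, 0.111 and 0.182 for numbers 3, 5 and 8), so the number was treated as a pairing in an alternative fit. No libraries held equal values.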

Additional observations from a re-analysis of the deposited data

How the results depend on the processing

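The 14 tested members were refitted under 16 other settings, giving 220 values, of which 215 kept their direction and their side of the threshold and 0 reversed. The exceptions were Mmp12, which passed in 3, and Mmp13, which did not pass in 2, as given above. Members called higher numbered 9 to 15 and members called lower 1 under every setting, with 11 to 13 higher when 1 library was left out. With the replicate block 13 members were higher and 1 lower, and among tested members only Mmp12 changed its call. Over all genes, 2731 were higher and 818 lower. These were 1694 and 2362 with quantile normalization, and 1762 were lower with median-ratio scaling. Leaving out 1 library gave 478 to 850 lower genes, the lowest without WT replicate 5 and 526 without WT replicate 8. The share of calls that were higher was 76.95%, 41.8% with quantile normalization and 53.6% with median-ratio scaling.

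A minimum mean of 5 FPKM, which tests fewer genes, left 1761 higher genes, 11 matrix regulators, 8 macrophage, 7 fibroblast and smooth muscle, 0 endothelial and 0 lymphocyte markers. Of 12 luminal markers, 2 were higher and 2 lower. With no filter 0 were lower, with median-ratio scaling 1 was higher, and without 1 library 1 to 2 were higher and 0 to 2 lower. With no filter 6 endothelial markers were higher in place of 3. For neutrophil markers the count of 1 became 2 with a pseudocount of 0.1 and 1 to 3 without 1 library. For lymphocyte markers the count of 2 became 1 with quantile normalization and 1 to 3 without 1 library. The cause of these shifts was not tested.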
